A study of Homo sapiens with 6 samples.

Results

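The V-ATPase and the lysosomal mTORC1-TFEB signaling genes were examined in HepG2 cells treated with polydatin (PD). The gene set comprised the protein-coding genes whose symbol begins with ATP6V0 or ATP6V1, the accessory genes ATP6AP1 and ATP6AP2, and named genes of the lysosomal signaling surface. In GENCODE release 44 this rule finds 45 genes, and 41 of them are among the 28563 genes with values. ATP6V0D2, ATP6V1G3, RRAGD and the read-through gene ATP6V1G2-DDX39B were not analysed here. ATP6V1FNB matches the symbol rule alone and is not a subunit of the pump. In that release exons of 23 of the 41 genes overlap another annotated gene, and the shared bases are given below for the genes whose values are listed by library. For many genes the length fitted to the authors' values differed from the exon bases of that release. The gene models they counted, and the overlaps of these, may therefore differ from those given.

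HepG2 is an established line of human liver cancer cells. PD, a plant stilbene, is the glucoside of resveratrol. By the paper's methods, plates of HepG2 cells were allotted at random to PD or to DMSO, the solvent used as control. By the labels, the dose was 336 µM PD, and RNA was taken after 24 h. The study thus compared 3 PD libraries with 3 DMSO libraries, all from the same line, so p-values measure the spread between plates of this line only. Poly(A) RNA was sequenced, and the authors gave the level of each gene as FPKM, which divides its fragments by gene length and by library size. Because FPKM are divided by length, levels of different genes were set side by side on that scale. Values with ± are the mean and SD of 3 libraries unless SE is named, and positions of genes are those of GENCODE on hg38.

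The V-ATPase is a rotary pump that acidifies lysosomes and other compartments. Its V1 sector hydrolyses ATP in the cytosol and turns a rotor in the membrane-bound V0 sector, which carries protons across. The same pump serves as a platform for nutrient signaling. Together with the Ragulator complex it holds the Rag GTPases on the lysosomal surface, where they recruit the kinase complex mTORC1 when amino acids are plentiful, and RHEB then activates the kinase. Active mTORC1 phosphorylates the transcription factors TFEB, TFE3 and MITF and keeps them in the cytosol. When it is inactive they enter the nucleus and bind a short palindromic DNA element, the CLEAR element, in promoters of lysosomal genes. FLCN with FNIP1 or FNIP2 acts on RRAGC and RRAGD, and this step is needed for the phosphorylation of TFEB and TFE3. In liver cells this circuit adjusts lysosomal breakdown and autophagy to fasting and feeding.

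The core of the CLEAR element is a 7-base string, TCACGTG, and its occurrences in the promoters of the set are shown first, because the values below are later set beside them. Promoter windows from 250 bases before to 50 bases after the annotated start came from RefSeq on GRCh38.p14, and 33 of the 41 genes had a window. ATP6V0E1, ATP6V1A, ATP6V1B2, ATP6V1C1, ATP6V1E2, ATP6V1FNB, ATP6V1H and RRAGA had none. Both strands were searched. The string was found in 9 of the 33 windows. The stretches below read 5′ to 3′ on the strand of the gene, capitals mark the string or its reverse complement CACGTGA, and fewer flanking bases are shown where a stretch reaches an annotated exon.
ATP6V0E2, chr7:149872875-149872921, plus strand: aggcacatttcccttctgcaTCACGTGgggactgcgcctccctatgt
ATP6V0D1, chr16:67481191-67481237, minus strand: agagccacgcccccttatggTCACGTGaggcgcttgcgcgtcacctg
ATP6V0B, chr1:43974882-43974928, plus strand: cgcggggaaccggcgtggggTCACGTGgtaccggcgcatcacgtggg
ATP6V1G1, chr9:114587699-114587727, plus strand: acgctgtgcggTCACGTGacaacgggggc
LAMTOR1, chr11:72103437-72103483, minus strand: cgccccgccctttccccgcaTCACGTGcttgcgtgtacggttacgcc
LAMTOR4, chr7:100148893-100148917, plus strand: gcggctgcaagCACGTGAccggggc
RRAGB, chrX:55717614-55717660, plus strand: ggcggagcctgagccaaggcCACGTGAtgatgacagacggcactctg
RRAGC, chr1:38859858-38859904, minus strand: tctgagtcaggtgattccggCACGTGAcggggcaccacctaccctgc
FNIP1, chr5:131797166-131797212, minus strand: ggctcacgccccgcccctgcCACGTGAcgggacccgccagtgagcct
The first capital base lay 14 bases before the start in LAMTOR4, 58 in ATP6V0B, 59 in ATP6V1G1, 60 in ATP6V0D1, 73 in ATP6V0E2, 112 in RRAGC, 115 in RRAGB, 166 in LAMTOR1 and 175 in FNIP1. Windows of ATP6V0B, FNIP1 and RRAGB held further matches, at 40, 94 and 26 bases before the start, and that of RRAGB also held a match 7 bases after it. The further match of ATP6V0B lies inside its stretch above and is in lower case there.

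Library totals recovered from the FPKM values and annotated exon lengths ranged from 16763318 to 17274927 fragments for DMSO and from 16308476 to 18071632 for PD. Over all genes, libraries of the same treatment differed by a chi-square per gene of 2.41 to 3.85 and libraries of different treatment by 51.6 to 60.2, so no library was a copy of another. Of 20 hepatocyte markers 11 had values, and only CPS1 and RBP4 reached 1 FPKM. ALB, AFP, APOA2, APOB, APOH, TTR, FGB, AHSG and ASGR1 had no values. The other 9 with values, among them APOA1 and HNF4A, stayed at or below 0.172 FPKM. Thus most of the 20 liver markers were near 0 or without a value in the libraries labelled HepG2. The summed level of the hepatocyte markers, nearly all of it CPS1, was 222 to 229 FPKM in DMSO and 107 to 113 FPKM in PD. RBP4 went the other way, from 0.391 to 1.30 FPKM (log2 change 0.71, limma adjusted p = 0.0027). Markers of other cells rich in particular V-ATPase subunits or in MITF were low. Of 6 melanocyte markers 4 had values and none passed 0.440 FPKM, and their sum was 0.448 to 0.522 FPKM in DMSO and 0.301 to 0.4998 in PD. Of 7 osteoclast markers 5 had values up to 0.474 FPKM, with sums of 0.650 to 0.756 FPKM in DMSO and 0.386 to 0.586 in PD. Of 7 markers of renal intercalated cells 5 had values up to 0.175 FPKM, and their sum was 0.0942 to 0.148 FPKM in DMSO and 0.162 to 0.207 in PD. Of 10 fibroblast markers 6 had values, and their sum overlapped between the groups, at 4.52 to 5.40 FPKM in DMSO and 4.82 to 5.09 in PD. The part of these markers in the changes below was not tested.

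PD was compared with DMSO by limma on log2(FPKM + 1), fitted to the 14400 genes whose mean over the 6 libraries reached 0.5 FPKM, and a gene was called when its Benjamini-Hochberg adjusted p over all of these was at most 0.05. Fold changes on this scale understate the change of low genes, so the plain ratio of mean FPKM is given too. Of the 41 genes 36 were tested. PD raised 19 of them and lowered 3, and 14 did not pass. The called share was 61.1%, against a background of 58.1% of all genes tested, so the number of calls in the set was near that of any gene. The rises made up 52.8% of the tested genes of the set, against 31.9% of all genes, and the falls 8.33%, against 26.2%. The median log2 change was 0.13 over the set and 0.01 over all genes tested. The FPKM of the groups did not overlap for 26 of the 36 genes, or 72.2%, against 65.4% of all genes. In 20 of these PD lay above DMSO, where the background was 35.6%, and in 6 below, where it was 29.9%. With a change of at least 2-fold as well, 1 gene of the set was called, ATP6V0E2, where the background was 3.61% of all genes. On recovered fragments, limma voom called 18 rises and 4 falls in the set, with 61.5% of all genes called, and 3 genes at 2-fold, with a background of 11.8%. In RNA from whole plates, fewer cells with a transcript and less of it per cell cannot be told apart.

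**Figure D1:**
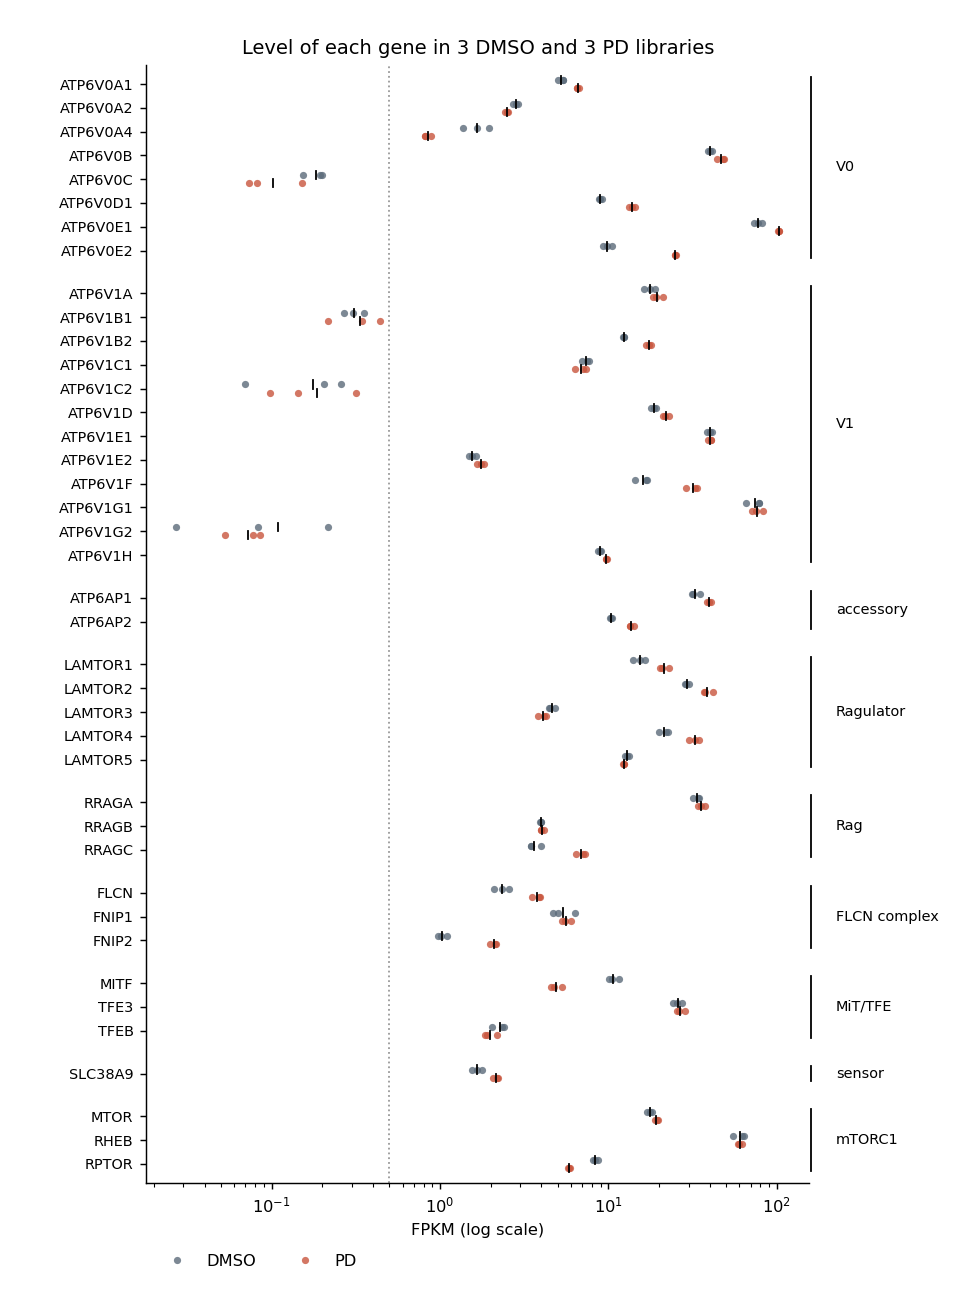
FPKM (log axis) of the V-ATPase and signaling genes, grouped by role, with a point for each of the 3 DMSO libraries (grey) and 3 PD libraries (red) and a black tick at each group mean. The dotted line is the 0.5 FPKM filter, and ATP6V0C, ATP6V1B1, ATP6V1C2 and ATP6V1G2 lie left of it. Mean levels of the genes right of the line ran from 1.03 FPKM for FNIP2 to 77.6 FPKM for ATP6V0E1 in DMSO.

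The membrane sector V0 showed the most calls of the pump. Of its 8 subunit genes with values 7 were tested, and PD raised 5, lowered 1 and left 1 short of the threshold, which is 85.7% called against 58.1% of all genes. The groups did not overlap for any of the 7, against 65.4% of all genes. The largest change of the whole set was that of ATP6V0E2 (ENSG00000171130, chr7:149872968-149891204), which encodes an isoform of the small e subunit. ATP6V0E2 stood at 9.32, 10.6 and 9.80 FPKM in the DMSO libraries and at 25.2, 24.8 and 24.8 FPKM in the PD libraries. Every PD library was thus well above every DMSO library. The ratio of means was 2.52, and the log2 change was 1.25 ± 0.05 (SE, 95% interval 1.14 to 1.37, limma adjusted p = 3.2e-06), at percentile 99.2 of all genes tested. The length fitted to the FPKM of ATP6V0E2 was 3335 bases, so the gene model counted differed from the 6749 exon bases of GENCODE. Of these 6749 bases 1344 are shared with other genes, among them the antisense gene ATP6V0E2-AS1. The antisense gene stood at 0.713 ± 0.125 FPKM in DMSO and 2.34 ± 0.152 FPKM in PD (SD, n = 3). The sources do not say whether counting used strand, so reads on the exon bases that this pair shares cannot be told apart. The paralog ATP6V0E1 was the most abundant gene of the set, and it rose less, from 77.6 ± 4.35 to 103 ± 0.554 FPKM (log2 change 0.41, adjusted p = 0.00016).

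ATP6V0D1 (ENSG00000159720, chr16:67438014-67481181) encodes the d subunit that joins the rotor of V0 to the stalk of V1. Its FPKM were 8.78, 8.91 and 9.15 in DMSO and 13.2, 13.8 and 14.4 in PD. The groups lay far apart relative to their spread, with a ratio of 1.54 and a log2 change of 0.57 ± 0.04 (SE, adjusted p = 4.2e-05), and its exons overlap no other annotated gene. ATP6V0B, which encodes the c″ subunit of the proton-carrying ring, went from 40.3 ± 1.16 to 46.9 ± 2.42 FPKM (log2 change 0.21, adjusted p = 0.0051). The principal ring subunit, ATP6V0C, could not be read. It was listed at 0.0739 to 0.199 FPKM, or 2 to 5 fragments per library, and 1080 of its 1416 exon bases are shared with the read-through genes ENSG00000259784 and ENSG00000260272, which were not analysed here. The part of that overlap in the low value was not tested.

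The a subunit of V0, which forms the path for protons, has 4 paralogs, of which ATP6V0A1 and TCIRG1 rose, ATP6V0A4 fell and ATP6V0A2 did not pass. ATP6V0A1 rose from 5.27 ± 0.191 to 6.58 ± 0.0916 FPKM (log2 change 0.27, adjusted p = 0.0018). ATP6V0A4 (ENSG00000105929, chr7:138706294-138799560), best known from acid-secreting cells of the kidney and inner ear, was lower in PD. It measured 1.38, 1.95 and 1.65 FPKM in DMSO and 0.892, 0.820 and 0.821 FPKM in PD. Although its DMSO libraries scattered most, all lay above the PD libraries, and the log2 change was -0.52 ± 0.10 (SE, 95% interval -0.76 to -0.29, adjusted p = 0.0030, ratio 0.508). ATP6V0A4 rested on 54 to 132 fragments per library, and 153 of its 4124 exon bases are shared with TMEM213 on the opposite strand. ATP6V0A2, which serves the Golgi and endosomes, went from 2.82 ± 0.102 to 2.50 ± 0.0449 FPKM, a log2 change of -0.12 with an adjusted p of 0.10 that fell to 0.045 with upper quartile scaling and to 0.031 with voom on fragments. The fourth paralog, TCIRG1, does not carry an ATP6V symbol and stood at 16.98 ± 0.188 FPKM in DMSO and 24.5 ± 1.66 FPKM in PD (log2 change 0.50, adjusted p = 0.00015).

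In the V1 sector 12 genes had values and 9 were tested. PD raised 4 of these, lowered none and left 5 short of the threshold, which is 44.4% called against the 58.1% of all genes. The gene of the F subunit, ATP6V1F (ENSG00000128524, chr7:128862856-128865847), part of the central stalk, changed most. ATP6V1F had 16.9, 14.4 and 16.7 FPKM in DMSO and 28.9, 32.7 and 33.7 FPKM in PD. The lowest PD library was above the highest DMSO library by a wide margin, with a ratio of 1.98 and a log2 change of 0.95 ± 0.08 (SE, 95% interval 0.76 to 1.13, adjusted p = 5.3e-05). Of its 762 exon bases 157 are shared with KCP on the opposite strand, which stood at 0.137 ± 0.0132 FPKM in DMSO and 0.546 ± 0.0301 FPKM in PD. ATP6V1B2, the common isoform of the nucleotide-binding B subunit, rose from 12.3 ± 0.162 to 17.4 ± 0.637 FPKM (log2 change 0.46, adjusted p = 6.7e-05), and ATP6V1D, another stalk subunit, from 18.6 ± 0.642 to 22.03 ± 0.890 FPKM (log2 change 0.23, adjusted p = 0.0032). ATP6V1H, a regulatory subunit, went from 8.91 ± 0.174 to 9.73 ± 0.0765 FPKM (adjusted p = 0.037), and this call was lost whichever library was left out, with adjusted p from 0.051 to 0.10.

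The catalytic A subunit and most of the peripheral stalk were not called. ATP6V1A, which hydrolyses ATP, had 17.7 ± 1.27 FPKM in DMSO and 19.5 ± 1.35 FPKM in PD, and the log2 change of 0.13 had a 95% interval from -0.02 to 0.29 (adjusted p = 0.13). Of the stalk genes, ATP6V1E1 changed by 0.01 (-0.08 to 0.09), ATP6V1G1 by 0.05 (-0.15 to 0.24) and ATP6V1C1 by -0.08 (-0.23 to 0.07) on the log2 scale. Each of these intervals spans 0. ATP6V1E2, the testis-enriched E isoform, measured 1.55 ± 0.0752 FPKM in DMSO and 1.75 ± 0.0810 FPKM in PD, with groups that did not overlap and an adjusted p of 0.21. ATP6V1B1, ATP6V1C2 and ATP6V1G2, isoforms of specialised tissues, had group means between 0.0720 and 0.333 FPKM and were not tested, as was ATP6V1FNB at 0.251 ± 0.0708 and 0.286 ± 0.00531 FPKM.

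The accessory proteins ATP6AP1 and ATP6AP2 help to assemble the pump, and both genes rose. Over all genes tested, 58.1% were called and 31.9% rose. ATP6AP2, also known as the prorenin receptor, had 10.5, 10.4 and 10.3 FPKM in DMSO and 14.2, 13.5 and 13.4 FPKM in PD. Its replicates lay close together and the groups were apart, with a log2 change of 0.37 ± 0.04 (SE, adjusted p = 0.00020, ratio 1.32). ATP6AP1 went from 32.8 ± 1.86 to 39.6 ± 0.893 FPKM (log2 change 0.27, adjusted p = 0.0019). No exon of either gene overlaps another gene. Summed over the 8 V0 genes, the level was 147 ± 6.19 FPKM in DMSO and 199 ± 2.44 FPKM in PD, a ratio of 1.35. The 12 V1 genes summed to 197 ± 10.1 and 226 ± 7.23 FPKM, a ratio of 1.15. These sums are descriptions without a test, and ATP6V0E1, ATP6V0B and ATP6V1G1 make up much of them. The V0 sum holds ATP6V0C, which could not be read, and leaves out TCIRG1. Within it the mean of ATP6V0E1 went from 77.6 to 103 FPKM and that of ATP6V0E2 from 9.89 to 24.9 FPKM, while ATP6V0A2 and ATP6V0A4 went down. The ratio therefore does not describe each gene of the sector.

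**Figure D2:**
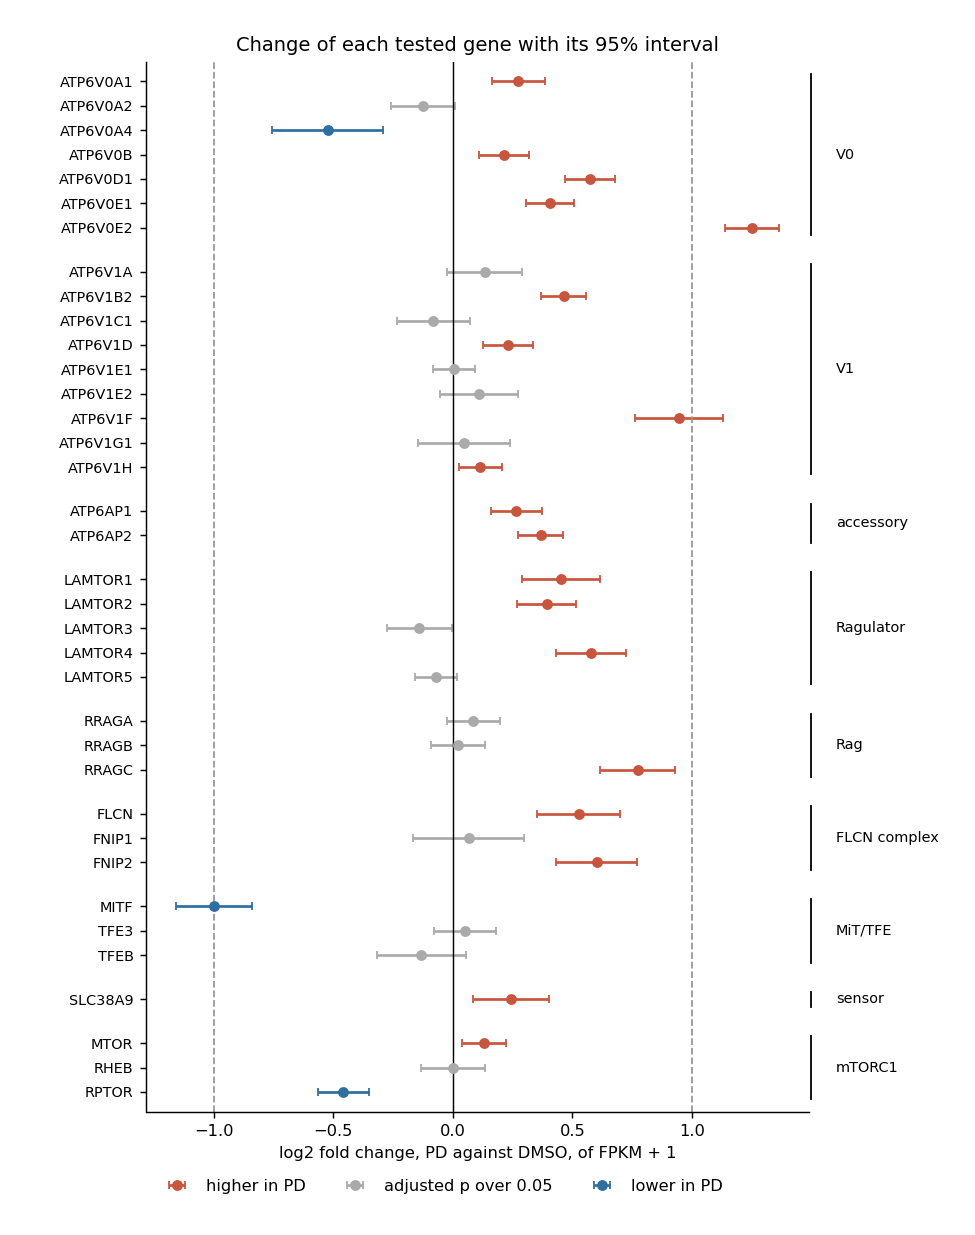
Log2 fold change of FPKM + 1, PD against DMSO, of the 36 tested genes by role, with points for the estimate and bars for the 95% interval from limma. Red points were higher in PD (19), blue lower (3), and grey had an adjusted p over 0.05 (14); dashed lines mark 2-fold, which only ATP6V0E2 at 1.25 passed, with MITF at -0.999 just short of it.

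Ragulator, the scaffold of 5 LAMTOR proteins that ties the Rag GTPases to the lysosome, was split. LAMTOR1, LAMTOR2 and LAMTOR4 rose, and LAMTOR3 and LAMTOR5 lay lower in every PD library than in any DMSO library without passing the test. That is 60% called, near the 58.1% of all genes tested. The groups did not overlap for any of the 5, against 65.4% of all genes. LAMTOR4 (ENSG00000188186, chr7:100148912-100155944) had 21.9, 19.998 and 22.6 FPKM in DMSO and 32.9, 34.5 and 30.3 FPKM in PD. The separation was clear, with a log2 change of 0.58 ± 0.06 (SE, adjusted p = 0.00019, ratio 1.51). It shares 356 of its 1931 exon bases with TRAPPC14 on the opposite strand, which went from 5.14 ± 0.451 to 6.23 ± 0.323 FPKM. LAMTOR1, the lipid-anchored subunit that fixes the complex to the membrane, had 16.6, 14.1 and 15.5 FPKM in DMSO and 20.2, 23.1 and 21.0 FPKM in PD (log2 change 0.45 ± 0.07, SE, adjusted p = 0.0011), and no exon of it overlaps another gene. LAMTOR2 rose from 29.3 ± 0.895 to 38.8 ± 2.69 FPKM (log2 change 0.39, adjusted p = 0.00059). LAMTOR3, which forms a dimer with LAMTOR2, went from 4.61 ± 0.218 to 4.09 ± 0.212 FPKM. Its log2 change was -0.14 with an adjusted p of 0.070, which became 0.049 with median-of-ratios scaling and 0.030 with upper quartile scaling. LAMTOR5 went from 13.0 ± 0.351 to 12.3 ± 0.0721 FPKM (adjusted p = 0.15, and 0.032 with upper quartile scaling). The sum of the 5 genes was 83.8 ± 1.43 FPKM in DMSO and 109 ± 5.92 FPKM in PD.

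Rag GTPases work as pairs of RRAGA or RRAGB with RRAGC or RRAGD. Of the 3 genes with values RRAGC alone was called, which is 33.3%, against 58.1% of all genes tested. RRAGC (ENSG00000116954, chr1:38838198-38859772) measured 3.46, 3.96 and 3.46 FPKM in DMSO and 7.04, 7.24 and 6.43 FPKM in PD. Every PD value exceeded every DMSO value, with a ratio of 1.90 and a log2 change of 0.77 ± 0.07 (SE, 95% interval 0.62 to 0.93, adjusted p = 6.6e-05). An unnamed gene on the same strand, ENSG00000273637, shares 1183 of its 5116 exon bases. RRAGA went from 33.6 ± 1.34 to 35.7 ± 1.67 FPKM, a log2 change of 0.09 (-0.02 to 0.20, adjusted p = 0.15). RRAGB stood at 3.97 ± 0.0266 and 4.04 ± 0.0892 FPKM, a log2 change of 0.02 (-0.09 to 0.13, adjusted p = 0.72).

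In the FLCN complex, the GTPase-activating complex for RRAGC and RRAGD, 2 of 3 genes rose. That is 66.7% called, near the 58.1% of all genes tested. FLCN (ENSG00000154803, chr17:17212212-17237188), the gene mutated in Birt-Hogg-Dubé syndrome, had 2.32, 2.09 and 2.56 FPKM in DMSO and 3.88, 3.94 and 3.53 FPKM in PD. All PD libraries exceeded all DMSO libraries, with a log2 change of 0.53 ± 0.07 (SE, adjusted p = 0.00069) and a ratio of 1.63. Of its 9786 exon bases 1161 are shared with ENSG00000264187 on the same strand, which stood at 0.277 ± 0.122 and 0.218 ± 0.0647 FPKM. FNIP2 (ENSG00000052795, chr4:158769026-158908050), a partner of FLCN, had 1.11, 0.972 and 1.02 FPKM in DMSO and 2.15, 1.97 and 2.13 FPKM in PD. Its ratio of means was 2.02, while the log2 change on the FPKM + 1 scale was 0.60 ± 0.07 (SE, adjusted p = 0.00032), since the added 1 FPKM weighs heavily at this level. FNIP2 has no exon overlap and 177 to 422 fragments per library, and on fragments voom gave a log2 change of 1.01. Its paralog FNIP1 went from 5.36 ± 0.886 to 5.62 ± 0.334 FPKM, with groups that overlapped (log2 change 0.07, -0.17 to 0.30, adjusted p = 0.60).

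Among the MiT/TFE transcription factors, which act downstream of mTORC1, MITF fell and TFEB and TFE3 did not pass. That is 33.3% called, against 58.1% of all genes tested. MITF (ENSG00000187098, chr3:69739456-69968336) measured 10.5, 11.5 and 10.2 FPKM in DMSO and 5.29, 4.55 and 4.76 FPKM in PD. No PD library came near a DMSO library. MITF had a ratio of 0.454 and a log2 change of -0.999 ± 0.07 (SE, 95% interval -1.16 to -0.84, adjusted p = 2.2e-05), the largest fall of the set, at percentile 1.61 of all genes tested. Its change lay just inside 2-fold and passed 2-fold with a pseudocount of 0.1 (-1.12) and with voom (-1.14). MITF is the master regulator of melanocytes, whose markers were near 0 here, and it rested on 558 to 1390 fragments per library without exon overlap. TFE3 had 24.4, 25.8 and 27.3 FPKM in DMSO and 26.3, 25.6 and 28.4 FPKM in PD, and the groups overlapped (log2 change 0.05, -0.08 to 0.18, adjusted p = 0.47). TFEB had 2.04, 2.41 and 2.34 FPKM in DMSO and 1.84, 1.90 and 2.19 FPKM in PD, which also overlapped (log2 change -0.13, -0.32 to 0.06, adjusted p = 0.20). TFEB shares 115 of its 6722 exon bases with another gene, and TFE3 and RHEB share none. Phosphorylation and location of these proteins are not measured by RNA sequencing.

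SLC38A9 is the lysosomal arginine sensor that passes the amino acid signal to the Rags. It went from 1.66 ± 0.107 to 2.15 ± 0.0845 FPKM (log2 change 0.24, adjusted p = 0.018), and the call was lost without DMSO replicate 1 (adjusted p = 0.054), without PD replicate 2 (0.058) and with no filter on low genes (0.052). The core of mTORC1 went in both directions. MTOR, the kinase, had 16.97, 17.7 and 18.1 FPKM in DMSO and 19.6, 18.9 and 19.5 FPKM in PD. The PD libraries were all higher, by a log2 change of 0.13 ± 0.04 (SE, adjusted p = 0.023). That call was lost without DMSO replicate 1 (adjusted p = 0.073), DMSO replicate 2 (0.051), PD replicate 1 (0.068) or PD replicate 3 (0.072), and with both other scalings (0.063 and 0.10). RPTOR (ENSG00000141564, chr17:80544819-80966371), the subunit that binds substrates and docks on the Rags, had 8.34, 8.07 and 8.73 FPKM in DMSO and 5.83, 5.89 and 5.75 FPKM in PD. Its PD values were tightly grouped below all DMSO values, with a ratio of 0.695 and a log2 change of -0.46 ± 0.05 (SE, 95% interval -0.57 to -0.35, adjusted p = 0.00013). Overlaps with other genes take up 321 of the 10302 exon bases of RPTOR and 371 of the 13373 of MTOR. RHEB, the GTPase that activates the kinase, had 64.1, 62.1 and 55.1 FPKM in DMSO and 59.7, 62.1 and 59.1 FPKM in PD. The RHEB groups overlapped fully, and the log2 change was -0.00 (-0.13 to 0.13, adjusted p = 1).

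Several subunits are encoded by paralogs, and the share of each paralog in the summed FPKM of its family does not depend on how libraries are scaled. The share was computed for 10 genes and compared by a two-sided exact permutation test, where 0.10 is the smallest p that 3 against 3 libraries can give. It reached that p for 4 shares, with 0.25 after Benjamini-Hochberg adjustment over the 10, so none could pass 0.05. TFE3 made up 66.5% ± 1.89 of the MiT/TFE sum in DMSO and 79.6% ± 0.871 in PD (SD, n = 3), a difference of 13.1 points, with MITF going from 27.7% ± 1.87 to 14.5% ± 1.22. TFEB had a share of 5.82% ± 0.271 in DMSO and 5.88% ± 0.348 in PD (exact permutation p = 0.80), and the sign of this difference changed without DMSO replicate 1 or PD replicate 3. FNIP2 took 16.3% ± 1.48 of the FNIP sum in DMSO and 27.1% ± 1.29 in PD. ATP6V0E2 took 11.3% ± 0.684 of the e subunit sum in DMSO and 19.5% ± 0.0971 in PD. For TFE3, MITF, FNIP2 and ATP6V0E2 the shares of the DMSO and PD libraries did not overlap. Nor did those of TCIRG1, ATP6V0A2, ATP6V0A4 and ATP6V1E1. The remaining share at the smallest p was that of ATP6V1E1, 96.3% ± 0.0549 and 95.8% ± 0.0909. Among the a subunits TCIRG1 went from 63.5% ± 1.24 to 71.1% ± 1.47 and ATP6V0A4 from 6.21% ± 1.02 to 2.46% ± 0.243, whereas ATP6V0A1 stood at 19.7% ± 0.529 and 19.1% ± 0.807 (exact permutation p = 0.30). RRAGA, ATP6V1B2, ATP6V1C1 and ATP6V1G1 differed by at most 0.571 points, with exact permutation p-values from 0.20 to 0.80. The families of ATP6V0D1 and RRAGC lack a paralog here and have no share.

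**Figure D3:**
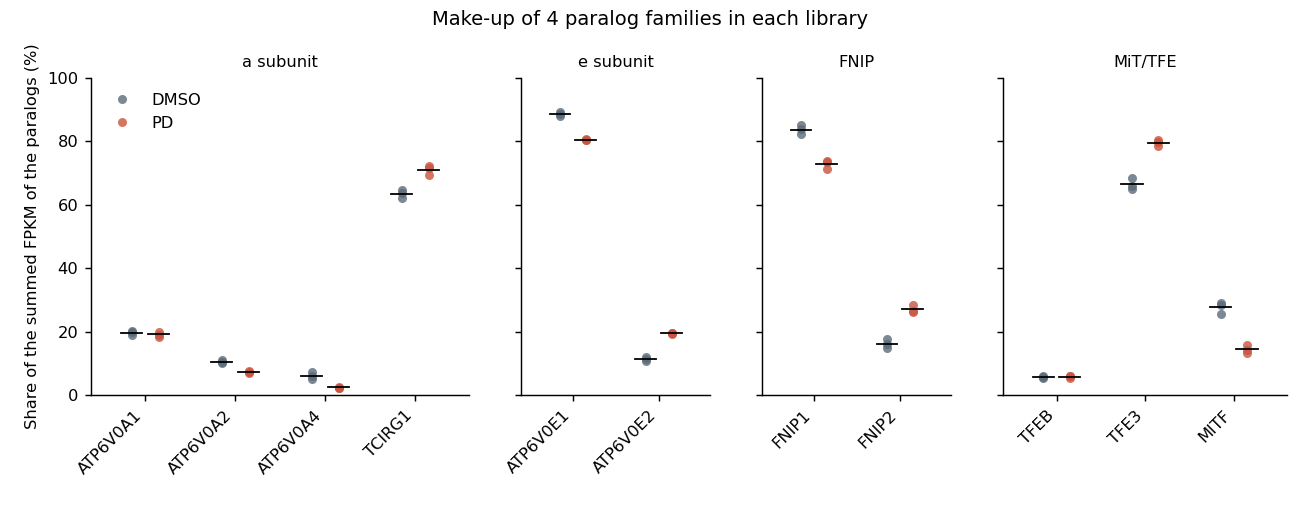
Share (%) of each paralog in the summed FPKM of its family, for the a subunit of V0, the e subunit of V0, the FNIP partners of FLCN and the MiT/TFE factors, with a point for each of 3 DMSO (grey) and 3 PD (red) libraries and a line at each mean. TFE3 goes from 66.5% to 79.6% as MITF goes from 27.7% to 14.5%, while TFEB is at 5.82% and 5.88%.

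Other genes of the pathway were looked up in 3 lists. Partners of the V-ATPase outside the rule comprised 15 genes, of which 14 were tested, with 7 higher, 1 lower and a median log2 change of 0.20. That is 57.1% called, against 58.1% of all genes. ROGDI, a subunit of the complex that loads V1 onto V0, was highest in change, from 4.36 ± 0.297 to 8.63 ± 0.556 FPKM (log2 change 0.85, adjusted p = 3.8e-05). CCDC115, an assembly factor, changed by 0.52 (adjusted p = 0.00025). NCOA7, a TLDc-domain protein that binds the pump, fell from 32.5 ± 3.65 to 10.0 ± 0.209 FPKM, a log2 change of -1.60 (adjusted p = 6.3e-06).

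The inputs to mTORC1 comprised 27 genes, of which 25 were tested, with 12 higher, 3 lower and a median log2 change of 0.16. The called share was 60%, near the 58.1% of all genes. SESN3, a sestrin that restrains mTORC1, rose from 1.58 ± 0.133 to 7.12 ± 0.687 FPKM (log2 change 1.65, adjusted p = 6e-06). TBC1D7, a subunit of the TSC complex that switches RHEB off, changed by 0.72 (adjusted p = 0.00014) and SESN1 by 0.58 (adjusted p = 0.0013). Falls were smaller, at -0.30 for LARS1, a leucyl-tRNA synthetase and leucine sensor, -0.25 for SEH1L of the GATOR2 complex and -0.17 for AKT1S1, an mTORC1 inhibitor.

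A list of known targets of TFEB, here called the CLEAR list, comprised 32 genes, of which 31 were tested. PD raised 25 of them and lowered none, which is 80.6% called against 58.1% of all genes, of which 31.9% were higher, and their median log2 change was 0.64. With 2-fold as well, 6 were called, where the background was 3.61%, among them the lysosomal hydrolases NEU1 (log2 change 1.32, adjusted p = 2.6e-06) and CTSD (1.31, adjusted p = 3e-06). The list and the set of V-ATPase and signaling genes share no gene, because genes of the set were left out when the list was drawn up. They are therefore not targets set against other genes, and no test of a difference between them was made.

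**Figure D4:**
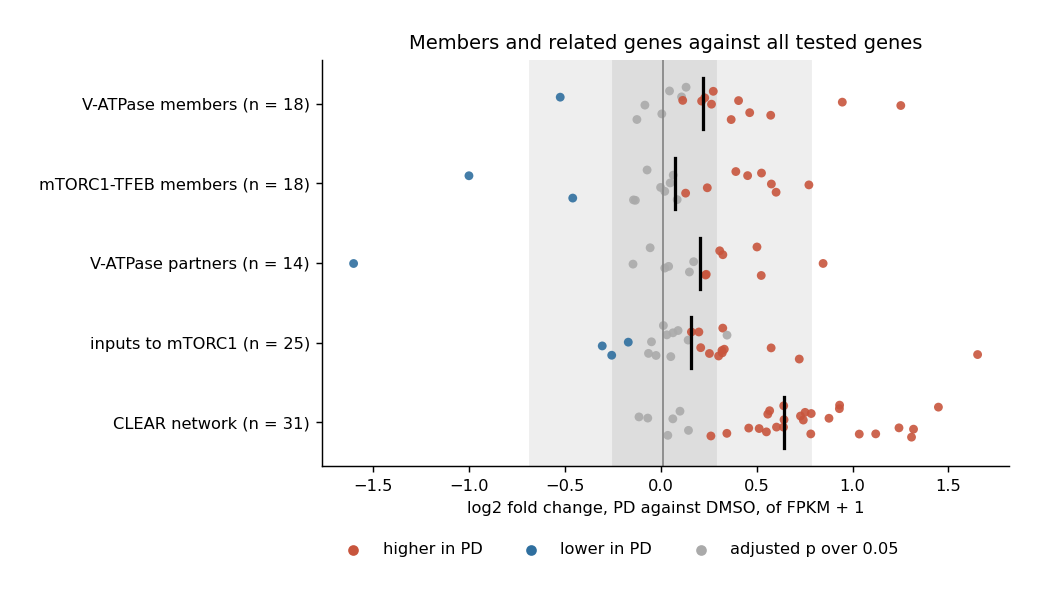
Log2 fold change of FPKM + 1, PD against DMSO, with a point per tested gene for the V-ATPase genes, the mTORC1-TFEB genes and the 3 further lists, coloured by call, and a black bar at each median (0.22, 0.08, 0.20, 0.16 and 0.64 from top to bottom). The grey line is the median of all 14400 genes at 0.01, the dark band their middle range from the 25th to the 75th percentile (-0.25 to 0.29) and the light band that from the 5th to the 95th (-0.68 to 0.78).

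The sequence strings were then set beside the calls. The 7-base string TCACGTG was in 27.3% of the windows of the set, against 4.49% of the 27305 genes with a window. Among tested genes it was in 9 of 29 windows of the set, or 31%, and in 7.28% of all 9809 windows, with 7.73% for all tested genes that rose. Among genes of the set with a window it was in 6 of 16 that rose (ATP6V0B, ATP6V0D1, ATP6V0E2, LAMTOR1, LAMTOR4 and RRAGC), in 3 of 10 that did not pass (ATP6V1G1, FNIP1 and RRAGB) and in 0 of 3 that fell. In FNIP1, ATP6V1G1 and RRAGB the string therefore stood beside log2 changes of 0.07, 0.05 and 0.02. Genes with rises but no match in their window included ATP6V1F, FNIP2, FLCN and ATP6AP2. The CLEAR list held the string in 10 of 20 windows, and the V-ATPase partners in 0 of 10. That list was made of known targets of TFEB, which binds the CLEAR element, so its matches are no independent result. The 6-base string CACGTG, which ends the 7-base string, was in the same count of 9 of 33 windows of the set and in 8.77% of all genes. The full 10-base palindrome of the CLEAR element, which also contains it, was in 2 of 33 (ATP6V1G1 and RRAGB) and in 0.421% of all genes. The M-box variant TCATGTG was in 4 of 33 (ATP6V0C, FNIP2, LAMTOR1 and LAMTOR3) and in 3.59% of all genes. The AP-1 string TGACTCA, which overlaps none of these, was in 4 of 33 (FNIP2, RRAGC, SLC38A9 and TFE3) and in 6.05% of all genes. These are counts of letters in fixed windows and were not tested.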

How the data were processed

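The authors purified poly(A) RNA, built NEBNext Ultra libraries, aligned reads to hg38 with HISAT2, counted them with HTSeq 0.6.0 and deposited FPKM. For their own comparison the authors used DESeq2. The strand setting and annotation release are not given in the sources used here, and the paper's methods and the labels differ on the dose of PD. Groups came from the labels. The gene set, lists and tests were chosen with earlier results of these data known. Named with all library values were genes called with 2-fold, the 6 largest rises and falls and the main signaling genes; from each list up to 3 rises and 3 falls, some of which are not reported here. Symbols came from GENCODE release 44, for 28161 of 28563 genes. The main test was limma 3.58.1 in R 4.3.3 on log2(FPKM + 1), with a mean-dependent prior variance. Whole fragments were recovered, within 0.01 of a whole number, with the annotated exon length for 13420 genes and from a common step of the values for 15141, and held 99.8% of each library total, so genes with few fragments are measured least precisely. Alternatives were a pseudocount of 0.1, no filter, median-of-ratios and upper quartile scaling, voom on genes with at least 10 fragments in 3 libraries, a replicate block and leaving out each library. Share tests used scipy 1.17.1. Scripts were tested on simulated data.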

Additional observations from a re-analysis of the deposited data

How the results depend on the processing

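No call of a gene in the set changed direction under the alternatives run. The number of its genes that rose was 19, and 17 to 19 with another pseudocount, scaling, filter, voom or the block and 16 to 18 with a library left out. The number that fell was 3, but 6 with upper quartile scaling, where LAMTOR3, LAMTOR5 and ATP6V0A2 passed, and 4 with median-of-ratios scaling and with voom. Upper quartile scaling also moved the calls over all genes from 4588 higher and 3780 lower to 4166 higher and 4266 lower, and median-of-ratios scaling to 4362 and 4032, while the median change of all genes moved from 0.01 to -0.02 and -0.01. At 2-fold the set had 1 call, 2 with a pseudocount of 0.1 and with either scaling, where MITF joined ATP6V0E2, and 3 with voom, where FNIP2 joined too. With a library left out it had 1 to 3, namely 2 without DMSO replicate 1 or DMSO replicate 3 and 3 without PD replicate 1, where MITF passed each time and ATP6V1F the last time. Over all genes the 2-fold count was 520, and 1248 with the smaller pseudocount, where only the added constant was changed. With voom it was 1805, and the cause of that difference was not tested. The mTORC1 inputs had 1 call at 2-fold and 2 with voom. The V-ATPase partners had 1 fall, and 1 to 2 with a library left out, 2 of them without DMSO replicate 3. Among the 18 genes of the set whose exons overlap no other gene, a choice made after seeing the data, 10 rose, 1 fell and 0 passed 2-fold. ATP6V0E2, which passed 2-fold in the whole set, has an exon overlap and is not among the 18. No share of calls was computed over all genes without an overlap. Shares of ATP6V1C1, ATP6V1G1 and TFEB changed sign with a library left out, within 0.51 points.

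Replicate numbers did not pair the libraries. Deviations of libraries with the same number correlated at -0.027, -0.005 and 0.09, and not every library correlated best with its own number. With the number as a replicate block 18 genes of the set rose and 3 fell, and over all genes 4414 rose and 3618 fell; ATP6V1H was the call of the set that was lost (adjusted p = 0.072). Genes with few fragments, such as ATP6V0C with 2 to 5, could not show a change at this depth.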
